A study of Mus musculus with 4 samples.

Results

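RNA of mouse T cells was measured on 4 Agilent expression arrays, and 2 of them are set against each other here: the array titled si-RL Treg and the array of naive T cells. The first is the library whose label names the control hairpin, a label that its Eos and Foxp3 signals, given below, go against. The question is what sets this cultured library, in which Foxp3 was low, apart from T cells that were taken as naive. All 4 arrays held RNA of CD4 T cells from spleen and lymph nodes of Balb/C mice, 1 array per group.

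By its label, the library labelled si-RL came from natural regulatory T cells (Treg, CD4+CD25+) that received a lentivirus with a short hairpin RNA against Renilla luciferase, a sequence mice do not have, and a GFP reporter. These cells stayed 60 h in medium with human IL-2 and were sorted for GFP. The library labelled si-Eos was made in parallel, by its label with a hairpin against Eos, and fresh Treg were CD4+CD25+ cells that were not transduced. Naive T cells were sorted as CD4+CD25- cells with a further gate for a naive surface marker, also not transduced. The labels do not give the age or sex of the mice, how many were pooled, or such a gate for the Treg. The library labelled si-RL and naive T cells therefore differed at once in the population sorted, the lentivirus, the time in culture, the IL-2 and the GFP sort, and these cannot be told apart.

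Naive T cells circulate through lymphoid organs in a resting state, held by transcription factors such as Tcf7 and Lef1 and by receptors for homing and egress such as Ccr7 and S1pr1. Regulatory T cells restrain other immune cells. Their program depends on the transcription factor Foxp3, and they carry the high-affinity IL-2 receptor, whose signal runs through STAT5. T cells that respond to IL-2 or antigen enlarge, divide and shift their metabolism toward glycolysis, while low oxygen and DNA damage each have a response program of their own, led by HIF-1 and by p53.

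Levels are the log2 of the processed signal, the spot brightness after the scanner software took off the background, minus the array's 75th percentile. A gene counted as measured where its brightest probe stood clear of the background on both arrays (well above background by the scanner software's flag), which held for 16775 of 27597 genes. With 1 array a group there is no replicate spread and no test, so a gene is called higher or lower where the scaled levels were at least 2-fold apart. The value after ± is the scanner software's error of both spots combined, a technical error that leaves out differences between animals, cultures and labelling reactions. Levels of different probes are not compared.

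Of the 16775 measured genes, 1694 were higher (10.1%) and 1508 lower (8.99%) in the library labelled si-RL than in naive T cells, and the median difference was -0.02. The other 80.9% lay within 2-fold. At least 10-fold apart were 94 genes on the higher and 85 on the lower side. When the arrays were scaled to their medians instead, the median of all genes moved to -0.15 and the split moved to 1391 higher and 1962 lower genes, so that 41.5% of the genes apart were higher, against 52.9% as reported. The background correction moved most sizes: with normexp, 114 of 161 named genes moved by more than the scanner error and 3 changed sign. Of the 157 that were at least 2-fold apart, 125 were so the same way under normexp, where for example Phlda3 differed by 6.75 and not 8.35, Hk2 by 5.35 and not 7.51, and Jchain by -6.30 and not -8.37. Each array had 64.0 to 68.3% of its 41174 probes well above background, and 75th percentiles of the signal from 262 to 392. For 992 of the genes apart another probe was measured, and for 187 of these (18.9%) one such probe differed in the opposite direction.

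**Figure D1:**
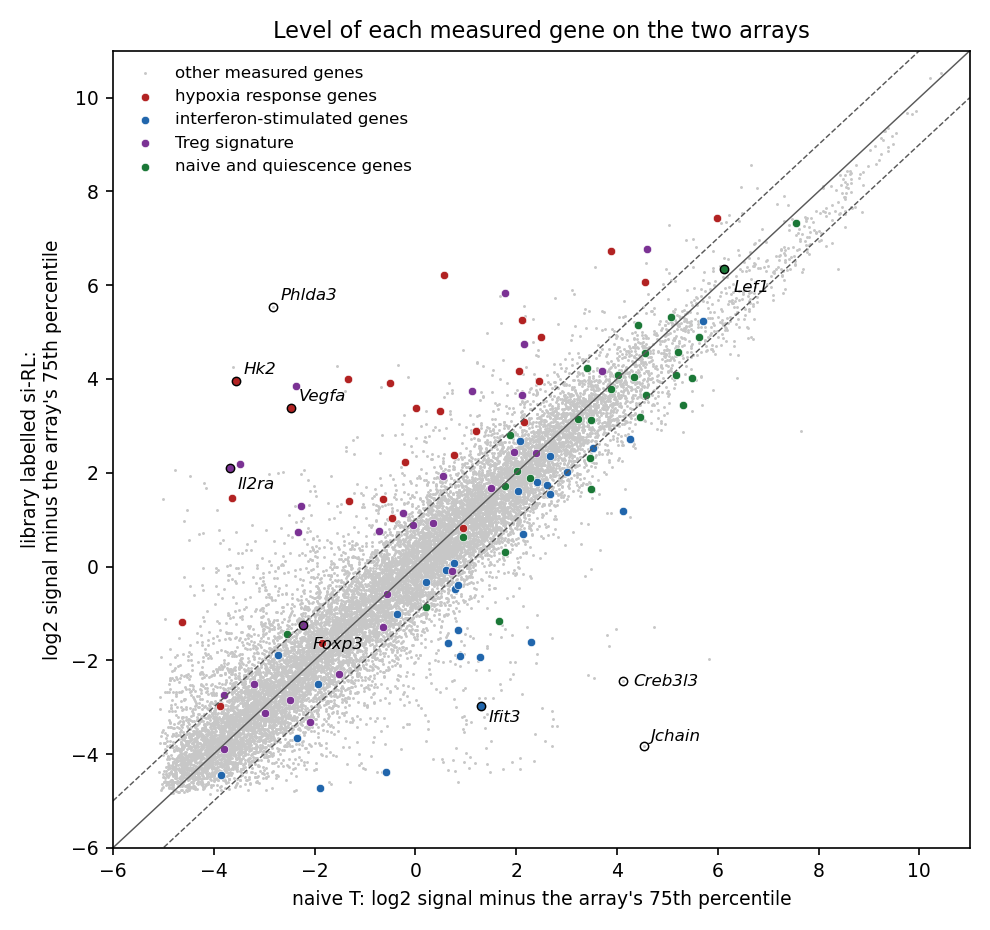
Each point is 1 of the 16775 measured genes, with its level (log2 signal minus the array's 75th percentile) in the library labelled si-RL on the vertical axis and in naive T cells on the horizontal axis. The solid line marks equal levels and the dashed lines a 2-fold difference. Hypoxia response genes lie mostly above the band and interferon-stimulated genes inside or below it, while Lef1 lies near the line of equal levels.

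The targeted genes were examined first. Foxp3 gave a processed signal of 110.1 in the library labelled si-RL, 2644 in the library labelled si-Eos, 1778 in fresh Treg and 64.4 in naive T cells (probe at chrX:6751991-6752050, mm8). Its level in the library labelled si-RL was 0.98 ± 0.21 above naive T cells, 1.97-fold and just short of the 2-fold rule. Under normexp the difference was 0.37. Foxp3 was therefore far from the level of fresh Treg in a library whose label names Treg. Eos, the zinc-finger partner of Foxp3 encoded by Ikzf4, had 3 probes, which disagreed on the difference from naive T cells, at -0.64 ± 0.21, 1.40 ± 0.22 and -0.06 ± 0.22. The brightest read 107 in the library labelled si-RL, 249 in the library labelled si-Eos, 363 in fresh Treg and 192.5 in naive T cells (chr10:128036782-128036841, mm8). The 2 other probes read 89.6 and 50.6 in the library labelled si-RL, 425 and 141 in the library labelled si-Eos, while fresh Treg read 323 and 121 and naive T cells 39.1 and 61.1. On all 3 probes the library labelled si-RL thus held less Eos signal than the library whose label names the Eos hairpin, which goes against the labels. Whether the labels of these 2 libraries were exchanged was not tested. For this reason the libraries are named by their labels here, and each sign holds for the libraries as labelled.

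Markers of Treg were split in the library labelled si-RL. Ikzf2, the Treg transcription factor Helios, read 498, 7341, 11525 and 387 in the order si-RL, si-Eos, fresh Treg and naive T, a difference of 0.57 ± 0.20 between the first and the last. Nrp1, a semaphorin receptor of thymic Treg, read 46.3, 61.7, 372 and 32.7 in that order (0.71 ± 0.23). Penk, which encodes proenkephalin, read 53.5 in the library labelled si-RL, 39402 in the library labelled si-Eos, 13036 in fresh Treg and 106 in naive T cells. For all 3 genes the library labelled si-RL stood within 2-fold of naive T cells, although the other probe of Penk read higher rather than lower there (0.85). Itgae, the integrin chain CD103, was even below naive T cells, with 26.4 against 71.4 and a difference of -1.23 ± 0.24, while fresh Treg read 3792. Under normexp Itgae differed by -0.78, within 2-fold.

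Other genes of the Treg signature did stand above naive T cells. Il2ra, the IL-2 receptor chain CD25 on which Treg were selected, read 1130 in the library labelled si-RL, 6972 in the library labelled si-Eos, 1228 in fresh Treg and 23.55 in naive T cells, a difference of 5.79 ± 0.23. Its 2 other probes gave 4.88 and 5.44. Tnfrsf18, the co-stimulatory receptor GITR, read 28592, 75890, 32027 and 7294 in the same order, and was 4.53-fold higher than in naive T cells. Ctla4, the inhibitory receptor that takes CD80 and CD86 from antigen-presenting cells, read 991, 6778, 7222 and 444, and was 2.58-fold higher. Of the 30 measured genes of the signature list, 14 were higher and 1, Itgae, was lower, with a median difference of 0.96. Under normexp 13 were higher and none was lower, with a median of 0.56. Against the same naive array, the library labelled si-Eos had a list median of 3.70, with 29 of 34 measured genes higher, and the median was 3.17 for fresh Treg, where 30 of 34 were. The shares of all measured genes called higher in these 2 comparisons were 12.7% and 5.51%, and those called lower were 12.1% and 2.04%. Both comparisons share the naive array with the one described here. Lag3, Il10, Klrg1 and Itgb8, also of that list, had no probe that passed the background flag on the si-RL array.

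Several markers of naive T cells stood in the library labelled si-RL where they stood in naive T cells. Tcf7, the transcription factor TCF-1, read 4464, 235.5, 2800 and 4897 in the order si-RL, si-Eos, fresh Treg and naive T, a difference of 0.07 ± 0.20. Lef1, its close relative, read 21323, 3546, 6185 and 21074 (0.22 ± 0.20). S1pr1, the sphingosine phosphate receptor for exit from lymphoid organs, read 3600, 51.7, 2203 and 4471 (-0.11 ± 0.20). On these 3 probes the library labelled si-RL lay nearer to naive T cells than either other array did, and the other probes of Tcf7 and Lef1 differed by 0.29 and by -0.61 to 0.09.

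Other naive markers were lower. Ccr7, the chemokine receptor for entry into lymph nodes, read 2869 in the library labelled si-RL, 9811 in the library labelled si-Eos, 6381 in fresh Treg and 12060 in naive T cells (-1.86 ± 0.20). Il7r, the IL-7 receptor chain that resting T cells need to survive, differed by -1.27 ± 0.20, but its 2 other probes by -0.62 and 0.10. The largest negative difference of the list was in Ly6c1, a surface protein gene, at -2.83 ± 0.21, followed after Ccr7 by Dapl1 at -1.83 ± 0.20. Of the 29 measured naive and quiescence genes, 1 was higher, Tcn2, and 9 were lower, with a median of -0.31. The same list had medians of -0.31 for fresh Treg and -0.68 for the library labelled si-Eos.

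**Figure D2:**
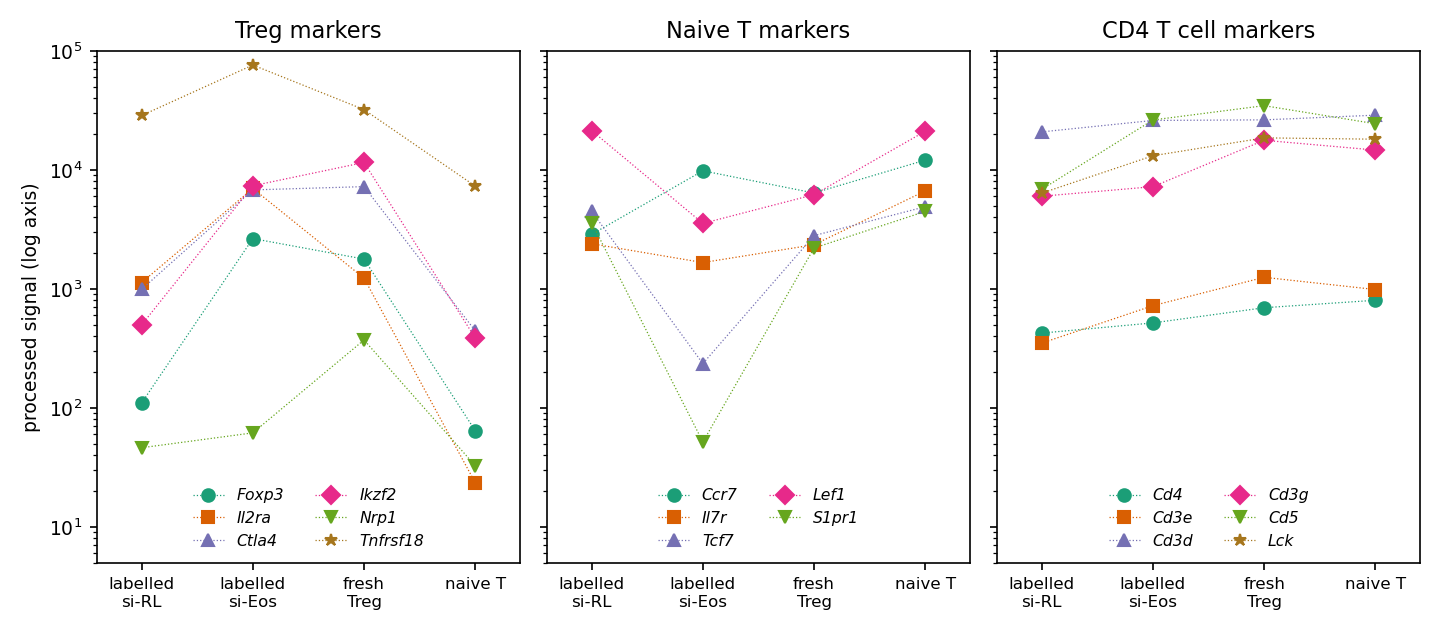
Processed signal (log axis) of 6 Treg, 5 naive T and 6 CD4 T cell markers on each of the 4 arrays, in the order library labelled si-RL, library labelled si-Eos, fresh Treg and naive T, with dotted lines that only join points of 1 gene. In the library labelled si-RL, Foxp3 and Ikzf2 sit near their naive T values, Il2ra sits near its fresh Treg value, and Tcf7, Lef1 and S1pr1 sit above their fresh Treg values and above those of the library labelled si-Eos.

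Genes of the IL-2 and STAT5 response were among the highest. Socs2, which encodes a feedback inhibitor of cytokine signalling, read 3811 in the library labelled si-RL, 6958 in the library labelled si-Eos, 2080 in fresh Treg and 59.1 in naive T cells, 74.4-fold above the last (6.22 ± 0.21). Cish, another such inhibitor, read 15044, 23947, 8885 and 1035 in the same order (4.07 ± 0.20). Gzmb, the cytotoxic protease granzyme B, read 1197, 21650, 112 and 27.1 (5.67 ± 0.23). Socs2 and Cish were also high in fresh Treg, whereas Gzmb was high in the 2 cultured libraries. Of 20 measured genes of the list, 12 were higher and 1 was lower, with a median of 1.57. Socs2, Il2ra, Gzmb and Cish lead both this list and the Treg signature list, so the counts of these lists are not independent. The lower one was Prf1, the pore-forming protein perforin that delivers granzymes, with 14.7 in the library labelled si-RL, 199 in the library labelled si-Eos, 115 in fresh Treg and 445 in naive T cells (-4.72 ± 0.30). Granzyme B and perforin messages thus differed from naive T cells in opposite directions.

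Activation genes were mixed, with 10 of 27 higher and 5 lower. Their median was 0.32, and 0.92 over the 17 genes with a signal of at least 100 on both arrays. Besides Il2ra, the higher ones were led by the transcription factor gene Bhlhe40 (3.92 ± 0.21), the co-stimulatory receptor gene Tnfrsf9 (3.54 ± 0.21) and Icos, a co-stimulatory receptor of activated and regulatory T cells (2.62 ± 0.20). The lower ones held the nuclear receptor genes Nr4a2 (-2.08 ± 0.23), Nr4a3 (-1.14 ± 0.23) and Nr4a1 (-1.11 ± 0.20), which are induced by antigen receptor signals. Nr4a1 read 10241 in the library labelled si-RL, 14489 in the library labelled si-Eos, 28512 in fresh Treg and 25544 in naive T cells. Of 10 measured effector cytokine genes, 5 were higher and 2 were lower, with a median of 0.85 that was -0.14 under normexp. The lower ones, Ifng and Tnf, of inflammatory cytokines, differed by -1.70 ± 0.21 and -1.32 ± 0.06. The higher ones were Lta, of lymphotoxin (2.55 ± 0.07), Il4 (2.33 ± 0.08), Tnfsf11 (1.66 ± 0.24), Il17f (1.40 ± 0.35) and Ltb (1.28 ± 0.20). Under normexp only 2 of the 10 were higher and 2 were lower. There Lta still differed by 2.39, but Il4 by 0.70, Tnfsf11 by 0.30 and Il17f by -0.09.

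Hypoxia response and glycolysis genes were higher almost throughout. Of 26 measured hypoxia response genes, 22 were higher and none was lower, with a median of 2.43. Vegfa, the angiogenic growth factor and a classical target of HIF-1, read 2710 in the library labelled si-RL, 644 in the library labelled si-Eos, 56.0 in fresh Treg and 54.7 in naive T cells (chr17:45489008-45489067, mm8), a difference of 5.84 ± 0.21 with 5.43 on its other probe. Ndrg1, a stress-induced gene, read 19426, 4928, 1539 and 445 in the same order (5.65 ± 0.20). Both genes were highest in the library labelled si-RL and lower on each other array. P4ha2, a prolyl hydroxylase of collagen, read 4194 and 182 in the cultured libraries labelled si-RL and si-Eos, was not well above background in fresh Treg, and read 119.8 in naive T cells (5.34 ± 0.21). Egln3, which encodes an oxygen-sensing prolyl hydroxylase of HIF, read 724.5, 1470, 136 and 24.4 in the order si-RL, si-Eos, fresh Treg and naive T (5.10 ± 0.23). Bnip3, of mitochondrial turnover, read 3954, 3452, 295 and 214 (4.42 ± 0.20). Pdk1, the kinase that keeps pyruvate out of the mitochondria, was higher in the library labelled si-RL alone, with 2599, against 251, 277 and 425 on the other arrays in the same order. Car9 and Adm, 2 targets of HIF-1 in many cell types, differed by only -0.12 ± 0.20 and 0.23 ± 0.21. The list had a median of 1.36 on the array labelled si-Eos and 0.06 on that of fresh Treg against the same naive array.

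Glycolysis was represented by 20 genes, of which 17 were higher and none was lower, with a median of 1.85 (some are also hypoxia response genes). Hk2, the inducible hexokinase that traps glucose in the cell, read 4046 in the library labelled si-RL, 5229 in the library labelled si-Eos, 458 in fresh Treg and 25.7 in naive T cells (chr6:82690720-82690779, mm8), a difference of 7.51 ± 0.23 or 182-fold. The lactate exporter gene Slc16a3 was higher by 5.15 ± 0.21 and the triose phosphate isomerase gene Tpi1 by 4.07 ± 0.20. Tpi1 read 14200, 14700, 2021 and 975 in the order si-RL, si-Eos, fresh Treg and naive T, so that both cultured libraries stood far above both fresh ones. The glucose transporter genes Slc2a1 (2.41 ± 0.20) and Slc2a3 (2.33 ± 0.20) were higher as well. Pfkfb4 was the single gene of the list below naive T cells (-0.20 ± 0.20). In fresh Treg the list median was 0.08, and in the library labelled si-Eos it was 1.57.

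The promoters of hypoxia response genes are shown because these genes were higher together and HIF-1 is known to bind a short motif. Windows from 250 bases before to 50 after a gene's start were taken from RefSeq on GRCm38.p6, a build other than that of the probes. A window exists for 23 of the 26 list genes on the array, and 18 of them (78.3%) hold the core ACGTG on either strand. Counted by windows, the share is 55.9% of 34, against 19.6% of all 32851 windows. A palindromic CACGTG counts on both strands. The match is a property of the letters and not evidence of binding. In the 3 windows below, of Hk2 (chr6:82774405-82774704, minus strand), P4ha2 (chr11:54100674-54100973, plus strand) and Bnip3 (chr7:138909457-138909756, minus strand), given 5′ to 3′ along the gene, capitals mark the core or its reverse complement.
Hk2: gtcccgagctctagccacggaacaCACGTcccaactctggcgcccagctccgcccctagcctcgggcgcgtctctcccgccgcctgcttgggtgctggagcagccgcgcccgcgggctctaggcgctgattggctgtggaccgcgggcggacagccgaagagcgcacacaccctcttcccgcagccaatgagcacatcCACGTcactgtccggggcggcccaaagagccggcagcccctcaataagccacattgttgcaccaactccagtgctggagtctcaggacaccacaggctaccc
P4ha2: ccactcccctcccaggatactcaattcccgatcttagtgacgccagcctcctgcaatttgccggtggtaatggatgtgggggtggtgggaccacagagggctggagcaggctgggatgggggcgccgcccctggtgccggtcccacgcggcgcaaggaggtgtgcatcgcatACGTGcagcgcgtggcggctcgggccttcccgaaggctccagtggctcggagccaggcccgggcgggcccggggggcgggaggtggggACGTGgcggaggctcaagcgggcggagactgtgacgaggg
Bnip3: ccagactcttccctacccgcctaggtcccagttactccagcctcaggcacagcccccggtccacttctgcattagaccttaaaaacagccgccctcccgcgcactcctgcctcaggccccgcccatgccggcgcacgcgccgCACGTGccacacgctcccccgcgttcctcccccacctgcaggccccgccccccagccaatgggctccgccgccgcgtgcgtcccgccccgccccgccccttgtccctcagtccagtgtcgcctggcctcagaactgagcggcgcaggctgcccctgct

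Targets of p53 formed the next group. Phlda3, an inhibitor of AKT signalling induced by p53, had the largest positive difference of all named genes: it read 12131 in the library labelled si-RL, 8560 in the library labelled si-Eos, 233 in fresh Treg and 43.0 in naive T cells (chr1:137585476-137585535, mm8), 8.35 ± 0.21 or 326-fold above naive T cells. Cdkn1a, which encodes the cell cycle inhibitor p21, read 1155, 2149 and 14.0 on the first 3 arrays in the same order and was not well above background in naive T cells, at least 149.7-fold below the library labelled si-RL. Sesn2, a stress-induced sestrin, differed by 4.52 ± 0.20, with only 0.76 on its other probe. Zmat3, an RNA-binding p53 target, differed by 3.84 ± 0.21, and Mdm2, the ubiquitin ligase that turns p53 over, by 1.49 ± 0.20. The message of p53 itself, Trp53, was not higher (-0.63 ± 0.20 on its brightest probe and 0.80 on the other). Of 27 measured genes, 18 were higher and 3 were lower, with a median of 1.49. The 3 lower ones were Tap1 (-2.16 ± 0.20), a peptide transporter gene that interferon also induces, the kinase gene Plk3 (-1.31 ± 0.20) and Rrm2b, of nucleotide supply (-1.18 ± 0.21). In fresh Treg the list median was 0.01 and in the library labelled si-Eos 1.47.

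The BCL-2 family holds guards and triggers of apoptosis, and members of both kinds were higher. Among triggers, Bbc3, which encodes PUMA, read 12301 in the library labelled si-RL, 6004 in the library labelled si-Eos, 1722 in fresh Treg and 1346 in naive T cells (3.40 ± 0.20). Pmaip1, which encodes NOXA, was 8.55-fold higher, Bcl2l11, which encodes BIM, by 2.56 ± 0.20 and Bax by 2.43 ± 0.06. Among guards, Bcl2l1, which encodes BCL-XL, differed by 2.16 ± 0.07 and Bcl2 by 1.66 ± 0.07, whereas Mcl1 stood within 2-fold. Bcl2l2, also a guard, differed by 2.85 ± 0.33, but it read 11.04 in naive T cells, close to the background. Under normexp Bcl2l2 differed by 0.45. In all, 7 of 13 measured genes were higher and 1, Bad, was lower, with a median of 1.66, which was 0.45 under normexp and 0.85 with no filter on dim probes. Bad differed by 0.04 on its other probe and by -0.54 under normexp. Bbc3 is also in the list of p53 target and apoptosis genes, so the counts of these lists are not independent.

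Genes of cell division were higher in a library that also had high Cdkn1a. Of 26 measured mitosis genes, 23 were higher and none was lower, with a median of 2.63 (1.68 under normexp). Kif11, a spindle motor, read 322 in the library labelled si-RL, 229 in the library labelled si-Eos, 135 in fresh Treg and 26.6 in naive T cells (3.81 ± 0.23). Bub1, of the spindle checkpoint, differed by 3.75 ± 0.25, the mitotic kinase gene Aurkb by 3.73 ± 0.24 and the kinetochore gene Cenpf by 3.68 ± 0.21. Mki67, the proliferation marker Ki-67, read 2598, 3765, 2616 and 352.5 in the order si-RL, si-Eos, fresh Treg and naive T. The 3 other arrays lay close to each other for this gene and naive T cells lay apart. The list median was 3.08 on the array labelled si-Eos and 2.16 on that of fresh Treg. DNA replication and S-phase genes were less far apart, with 11 of 29 higher, 1 lower and a median of 0.54. Rrm2, the ribonucleotide reductase subunit of dividing cells, differed by 3.74 ± 0.21, while the helicase gene Mcm5 was lower, with 521 in the library labelled si-RL, 3248 in the library labelled si-Eos, 2995 in fresh Treg and 1283 in naive T cells.

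**Figure D3:**
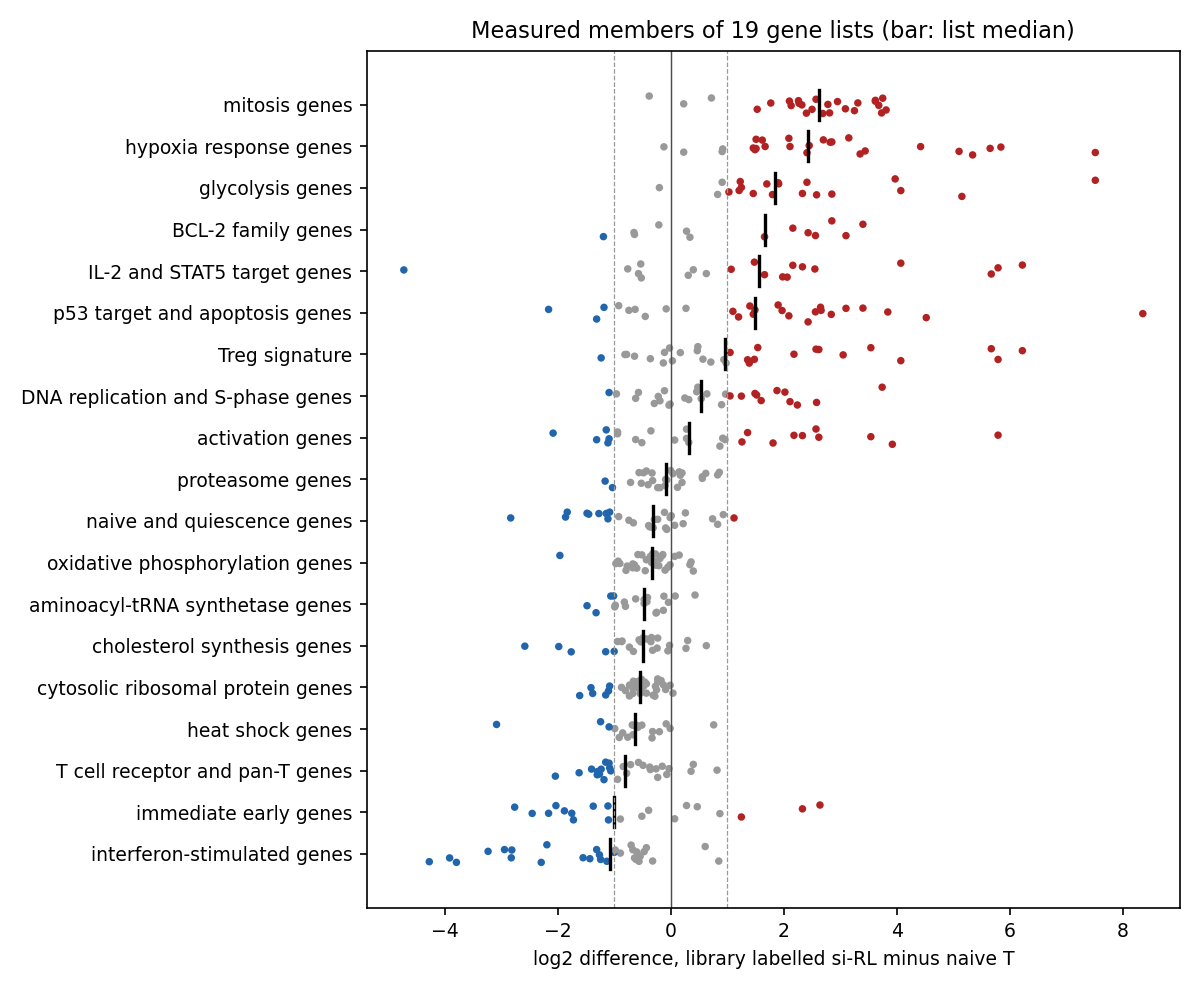
Each point is a measured gene of 1 of 19 lists, placed by its log2 difference (library labelled si-RL minus naive T). Red points are at least 2-fold higher, blue points at least 2-fold lower, grey points within 2-fold (dashed lines), and black bars are list medians, which run from 2.63 for mitosis genes to -1.06 for interferon-stimulated genes.

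Interferon-stimulated genes, which respond to type I and type II interferon and encode antiviral proteins, were lower or stood within 2-fold. Of 30 measured, none was higher and 15 were lower, with a median of -1.06. Ifit3, which encodes an RNA-binding antiviral protein, read 33.55 in the library labelled si-RL, 34.8 in the library labelled si-Eos, 492 in fresh Treg and 747 in naive T cells (chr19:34654612-34654671, mm8), a difference of -4.27 ± 0.22. Usp18, the protease that removes ISG15, read 85.4, 421, 1441 and 1479 in the same order (-3.91 ± 0.21). Both were lowest in the cultured libraries. Oas1a, a sensor of double-stranded RNA, read 12.6, 71.1, 534.5 and 201.5 (-3.79 ± 0.31), the first of these close to the background. Ifit1 differed by -3.23 ± 0.21, and the transcription factor gene Irf7 by -2.29 ± 0.21. Eif2ak2, the kinase PKR, had the highest difference of the list (0.85 ± 0.22). Oas2 passed the background flag in naive T cells but not on the si-RL array, a difference of at least 41.7-fold downward. The list median was -0.81 on the array labelled si-Eos and -0.19 on that of fresh Treg. Ifit and Oas genes have near-identical relatives, and which of them a probe also reads was not analysed here.

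Windows of interferon-stimulated genes were searched for the core of the interferon-stimulated response element, GAAANNGAAA, on both strands, where N is any base and matches may overlap. Of the 33 list genes on the array 24 have a window, and 17 of these (70.8%) hold a match. By windows the share is 60% of 30, against 3.44% of all 32851. Capitals mark the matches in the windows of Ifit3 (chr19:34583279-34583578, plus strand) and Oas1a (chr5:120907476-120907775, minus strand), again from RefSeq on GRCm38.p6 and shown because these are among the largest negative differences of the list.
Ifit3: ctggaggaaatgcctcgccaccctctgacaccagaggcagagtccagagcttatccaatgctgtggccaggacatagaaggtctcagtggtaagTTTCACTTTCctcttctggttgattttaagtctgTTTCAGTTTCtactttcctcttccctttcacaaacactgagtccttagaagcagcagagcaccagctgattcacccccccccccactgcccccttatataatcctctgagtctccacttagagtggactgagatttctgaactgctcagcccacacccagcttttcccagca
Oas1a: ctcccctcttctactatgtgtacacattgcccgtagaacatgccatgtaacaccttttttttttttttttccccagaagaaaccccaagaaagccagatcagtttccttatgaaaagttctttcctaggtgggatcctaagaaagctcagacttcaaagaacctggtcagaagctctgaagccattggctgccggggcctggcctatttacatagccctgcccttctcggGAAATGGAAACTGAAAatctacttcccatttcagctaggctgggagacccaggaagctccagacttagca

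Immediate early genes, which are switched on within minutes of a stimulus and also by tissue handling, were high on both fresh arrays. Fos, a subunit of AP-1, read 1906 in the library labelled si-RL, 329 in the library labelled si-Eos, 12026 in fresh Treg and 12003 in naive T cells (-2.45 ± 0.07). Zfp36, which encodes an mRNA decay factor, differed by -2.76 ± 0.20, the MAP kinase phosphatase gene Dusp1 by -2.16 ± 0.20 and Junb, of AP-1, by -2.03 ± 0.20. Of 20 measured genes, 10 were lower and 3 were higher, with a median of -1.0. The higher ones were Fosl2 (2.64 ± 0.21), Atf3 (1.25 ± 0.21) and Myc (2.33 ± 0.06), the growth regulator, whose other probes ranged from 0.76 to 2.38. The median of the list was -0.98 on the array labelled si-Eos and -0.07 on that of fresh Treg.

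Genes of the T cell receptor complex and its signalling differed downward to a smaller extent. All 6 CD4 T cell markers were measured on every array. Their summed signal, not scaled between arrays, was 40810 in the library labelled si-RL, 73758 in the library labelled si-Eos, 99038 in fresh Treg and 87637 in naive T cells. Cd5, a brake on receptor signals, read 6849 in the library labelled si-RL, 26213 in the library labelled si-Eos, 34578 in fresh Treg and 24366 in naive T cells (-1.62 ± 0.20). Lck, the kinase that starts the signal, differed by -1.30 ± 0.20, and the CD3 chain genes Cd3e, Cd3g and Cd3d by -1.29 ± 0.20, -1.08 ± 0.20 and -0.26 ± 0.20. Cd4 itself differed by -0.71 ± 0.06. For 2 of these markers another measured probe fell on the other side of the 2-fold rule, with -1.27 for Cd4 and -0.56 for Cd3e. In bulk RNA, fewer cells of a type and less RNA per cell cannot be told apart. Of 28 measured genes of the wider list, 12 were lower and none was higher, with a median of -0.81. Sit1, a membrane adaptor that dampens receptor signalling, was lowest at -2.04 ± 0.20. Themis, an adaptor of the same pathway, stood at the other end with 0.82 ± 0.20.

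**Figure D4:**
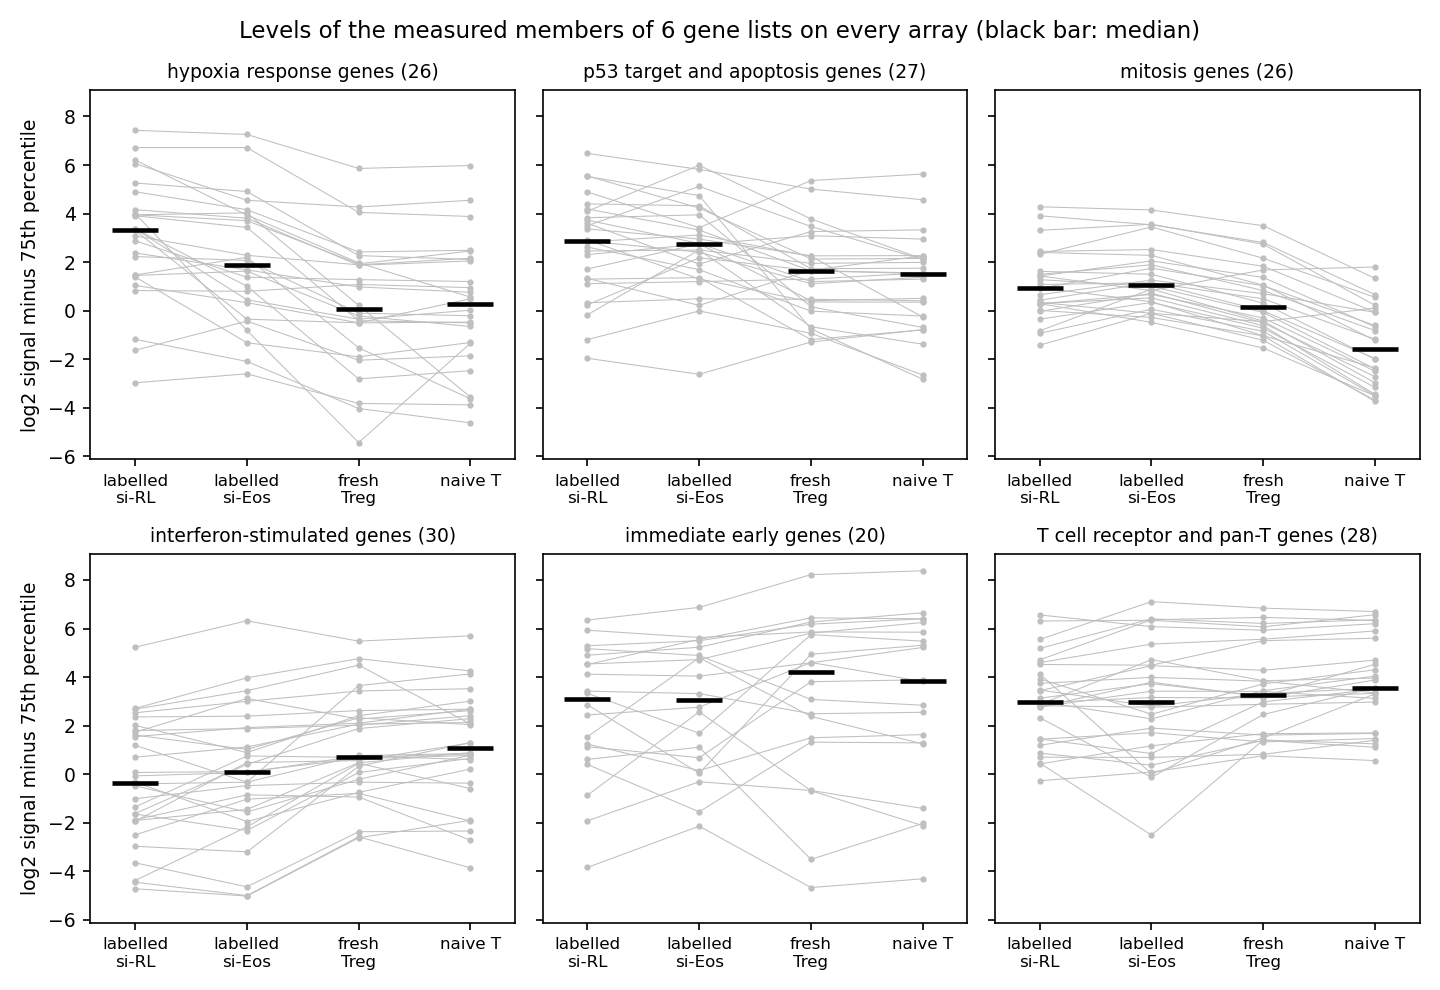
Levels (log2 signal minus the array's 75th percentile) on the 4 arrays of the genes of 6 lists that were measured in both the library labelled si-RL and naive T cells, with the number of genes in each title. Grey lines join the values of 1 gene and black bars are medians over genes. Hypoxia response genes are high in both cultured libraries, mitosis genes are lowest in naive T cells, and immediate early genes are highest on both fresh arrays.

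Several sets of housekeeping genes had medians slightly below 0. Of 19 heat shock genes 3 were lower and the median was -0.64, led by the inducible chaperone gene Hspa1a (64.2 in the library labelled si-RL, 406 in the library labelled si-Eos, 929 in fresh Treg and 628 in naive T cells). Cytosolic ribosomal protein genes had a median of -0.54 with 6 of 37 lower, of which Rps15 was the lowest at -1.61 ± 0.20. The ribosomal list had medians of -0.60 on the array labelled si-Eos and -0.59 on that of fresh Treg, so all 3 other arrays stood below the naive array as scaled here. The size depends on the scaling: under quantile normalization the median for the library labelled si-RL was -0.11, with 3 of 37 lower. Cholesterol synthesis genes had a median of -0.49 with 4 of 25 lower, aminoacyl-tRNA synthetase genes -0.47 with 4 of 20 lower, and oxidative phosphorylation genes -0.33 with 1 of 32 lower. None of these 5 lists had a gene called higher. Of all measured genes, 8.99% were called lower and 10.1% higher, and the oxidative phosphorylation list lay below that share of lower genes. Its median under normexp was -0.22, close to the -0.18 of all genes. On the array labelled si-Eos, 12.7% of all measured genes were higher than in naive T cells. There cholesterol synthesis genes had a median of 1.0 with 13 of 25 higher, and aminoacyl-tRNA synthetase genes 0.60 with 4 of 20 higher. Heat shock and oxidative phosphorylation genes had medians of 0.27 and 0.29 there.

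Most of the 15 largest negative differences among the named genes belonged to 2 kinds of transcripts, Dtx1 and Prf1 being the exceptions. The first kind were immunoglobulin transcripts and Jchain, which links antibody chains and is made by plasma cells. Jchain read 18.4 in the library labelled si-RL, did not pass the background flag on the si-Eos array, and read 8827 in fresh Treg and 7008 in naive T cells (-8.37 ± 0.26, with -8.12 on its other probe). The lambda gene Iglv1 read 108, 34.0, 9203 and 8066 in the order si-RL, si-Eos, fresh Treg and naive T (-6.02 ± 0.21). Within the spans of the immunoglobulin loci, chosen after the values were seen, none of the measured probes was higher. In the kappa locus (chr6:67539854-70601858, mm8) 29 of 35 measured probes were lower with a median of -3.18, in the heavy chain locus (chr12:113754262-116309865) 28 of 34 with -3.62, and in the lambda locus (chr16:18975296-18998876) all 9 with -6.02. Of the 85 genes at least 10-fold lower, 29 had their probe in these spans, 1 was Jchain and 55 were others. Probes of variable segments can read several near-identical segments. The gene with the array name Cisd3 is among the 29, since its probe lies inside the kappa span.

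Markers of B cells did not all go with the immunoglobulin transcripts. Cd74, the invariant chain of MHC class II, read 37.6 in the library labelled si-RL, 267 in the library labelled si-Eos, 1657 in fresh Treg and 786 in naive T cells (-4.18 ± 0.22), while H2-Ab1, an MHC class II chain, was higher at 2.82 ± 0.21 and Cd79b, of the B cell receptor, lower at -1.18 ± 0.21. Of 15 B cell markers on the array, 10 were measured, 1 was higher and 3 were lower. The sums given here add processed signals that were not scaled between arrays, over all markers on the array, whether or not they passed the background flag. For the 15 B cell markers the sum was 4655 in the library labelled si-RL, 3272 in the library labelled si-Eos, 26218 in fresh Treg and 12687 in naive T cells. Jchain is one of the 15 and carried most of the gap between the library labelled si-RL and naive T cells. Without it the sums were 4637, 3265, 17391 and 5680 in the same order, and fresh Treg still stood far above the library labelled si-RL. The immunoglobulin heavy chain gene Ighm is also one of the 15 and stayed in these sums. Cd79a, a defining marker of B cells, stood within 2-fold at signals of at most 54.8 on every array, and Pax5, Ebf1 and Blk were not well above background on either of the 2 arrays compared. Myeloid and dendritic cell markers summed to 7963, 10135, 25724 and 16382 in the order si-RL, si-Eos, fresh Treg and naive T, with 8 of 15 measured, 1 lower and none higher. NK and CD8 T cell markers summed to 1076, 17554, 3545 and 2026 with 6 of 12 measured and 1 lower, erythrocyte and platelet markers to 182, 443, 398 and 278, and stromal and endothelial markers to 229.6, 400.5, 504 and 461. The part of other cell types in the differences was not tested.

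The second kind were genes that were bright on both fresh arrays, dim in the library labelled si-RL and in between in the library labelled si-Eos. Creb3l3, a transcription factor known from liver, read 48.1 in the library labelled si-RL, 892 in the library labelled si-Eos, 8404 in fresh Treg and 5286 in naive T cells (-6.57 ± 0.22). Lgr4, a receptor for R-spondins, read 14.85, 177, 2532 and 1555 in the same order (-6.50 ± 0.27). Duox2, an oxidase that makes hydrogen peroxide, read 27.35, 399, 3193 and 2003 (-5.99 ± 0.23). Ppp1r14c, an inhibitor of a protein phosphatase, differed by -5.93 ± 0.21, the mitochondrial carrier gene Slc25a35 by -5.78 ± 0.22 and the retroviral gene Erv3 by -5.64 ± 0.28. None of these 6 genes had another probe that was measured on both arrays, so that no second probe bears on them. Unlike these, Dtx1, a regulator of Notch signalling, was about equally low in both cultured libraries, with 81.1 and 78.1, against 5226 in fresh Treg and 4345 in naive T cells.

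**Figure D5:**
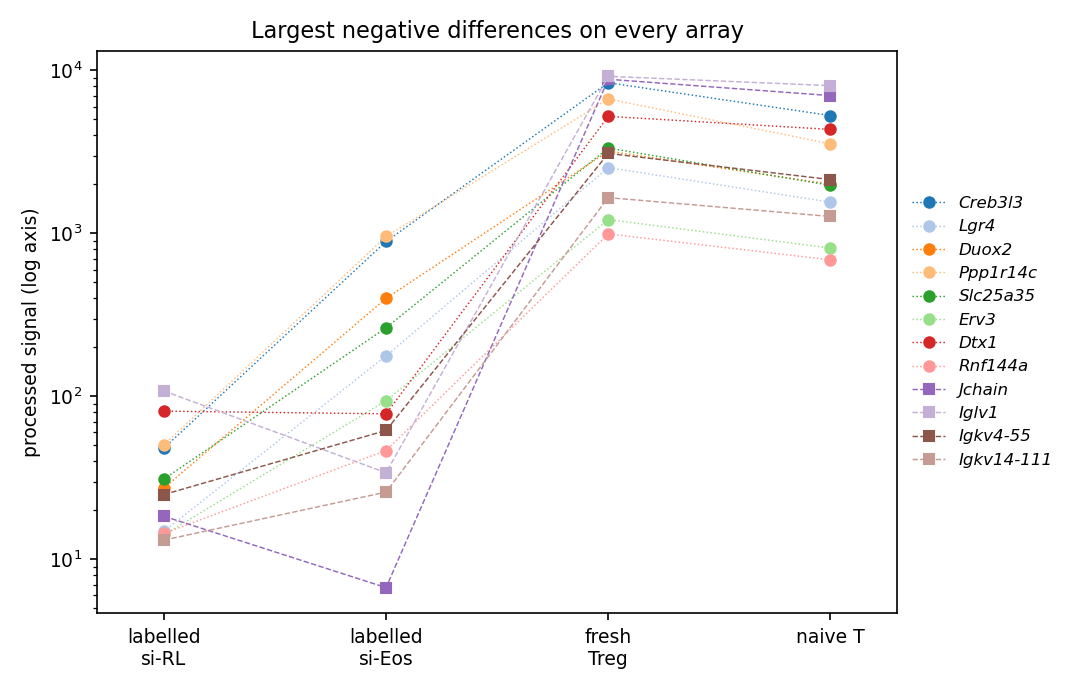
Processed signal (log axis) on each of the 4 arrays of 12 genes with large negative differences between the library labelled si-RL and naive T cells. Squares with dashed lines are immunoglobulin genes and Jchain, circles with dotted lines are other genes, and the lines only join points of 1 gene. The Jchain point on the si-Eos array did not pass the background flag. All 12 genes are above 600 on both fresh arrays and at most 108 in the library labelled si-RL.

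Genes seen on 1 of the 2 arrays only gave lower bounds. The si-RL array alone measured 859 genes, 425 of them by at least 2-fold, and the naive T array alone 1242, 373 of them by at least 2-fold. Each bound sets the bright array against the higher of the dim probe's own level and the lowest level of any probe that passed the background flag there. Besides Cdkn1a, the first group was led by Fam183b (at least 178-fold), Tnfsf4, the ligand OX40L (at least 135-fold), the lipoprotein receptor gene Vldlr (at least 90.5-fold), Fsd1l (at least 74.4-fold) and Dnm3, a dynamin (at least 52.5-fold). Tnfsf4 read 1039 in the library labelled si-RL, 1592 in the library labelled si-Eos and, among fresh cells, 44.3 in Treg. Among genes with a plain symbol, the second group was led by the synaptotagmin gene Syt6 (at least 217-fold lower), Eml6 (at least 217-fold), Kif12 (at least 144-fold), Adamts4 (at least 138-fold), Adamtsl3 (at least 133-fold) and Itgb8 (at least 87.85-fold). Syt6 read 246 in the library labelled si-Eos, 3747 in fresh Treg and 2275 in naive T cells. Each of these 6 also passed the background flag on the si-Eos array and was brighter still in fresh Treg.

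Among the remaining large positive differences were genes of varied roles. Psrc1, of the mitotic spindle, read 4973 in the library labelled si-RL, 4803 in the library labelled si-Eos, 117 in fresh Treg and 24.6 in naive T cells (7.87 ± 0.23, with 4.70 to 6.39 on its other probes). Metrnl, a secreted protein, differed by 6.83 ± 0.31, the mitochondrial protein gene Mgarp by 6.45 ± 0.35, the kinase gene Dyrk3 by 5.97 ± 0.27 and Stc2, a secreted glycoprotein, by 5.73 ± 0.32. In that order these genes read 11.1, 9.45, 16.5 and 13.1 in naive T cells, close to the background. Under normexp they differed by 3.82, 3.28, 3.26 and 2.76. Pygl, which breaks down glycogen, read 834, 104.5, 47.6 and 17.0 in the order si-RL, si-Eos, fresh Treg and naive T (5.83 ± 0.27). Drc1, of the motile cilium, read 5098, 61.5, 333 and 103 (5.84 ± 0.21), and was high in the library labelled si-RL only. Pde3b, a phosphodiesterase that is known to be low in Treg, read 3570 in the library labelled si-RL, 112 in the library labelled si-Eos, 84.9 in fresh Treg and 503 in naive T cells (3.03 ± 0.20). Of the 23 measured genes of the list known to be low in Treg, 4 were higher than in naive T cells and 8 were lower, with a median of -0.66. Not all of this list was low in fresh Treg, where 6 were higher than in naive T cells and 11 lower, with a median of -0.93. On the array labelled si-Eos 5 were higher and 11 lower, with a median of -0.63.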

How the data were processed

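The deposited scanner files held linear spot intensity, written per the file headers by Feature Extraction (Agilent, version 9.5.3.1), background-subtracted and not normalized between arrays, with probes placed on mm8. The series value table, as deposited by the authors, held the same intensity: all spots lay within 0.5% of the scanner value. The median error per spot was 0.15 on the log2 scale on each array.

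From these files the log2 intensity minus each array's 75th percentile over 41174 non-control probes was computed. Flagged spots (71 to 94 of 43379) were left out, spots of a probe were averaged, and a gene took its brightest probe over the 4 arrays. Gene names came from RefSeq by accession for 24375 probes, by symbol for 6301 and by synonym for 2426, and 8072 kept the file's name.

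The members and all 36 gene lists (782 of 794 entries on the array) were chosen with earlier results of these data known, and the lists give no independent support. The rule named Foxp3, Ikzf4, the 15 largest differences each way, up to 4 members each way of each list, up to 6 one-array genes each way and the CD4 T cell markers, 173 entries in all. A few of these entries are not reported here. Other named genes are fixed cell type markers or were chosen after their values were seen. The counting step was tested on simulated data. Python 3.11.15 and limma 3.58.1 (normexp) were used. Alternatives covered scaling, background, dim probes, probe choice, flags, the value table and the fold.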

Additional observations from a re-analysis of the deposited data

How the results depend on the processing

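No paired analysis was possible because each group was 1 array. The 1694 higher and 1508 lower genes became 804 and 750 with normexp background correction, 761 and 792 with a signal of at least 100 on both arrays, 3353 and 3422 at 1.5-fold, and 708 and 472 at 3-fold. The other alternatives for scaling, dim probes, probe choice, flags and source kept both counts within 1.5 times, from 1391 to 2125 higher and from 1396 to 1962 lower genes. These include genes with a disagreeing probe left out, which was chosen after the data were seen. Under normexp the medians of suppressive effector genes (-0.05), effector cytokine genes (-0.14) and chemokine ligand genes (-0.16) and the genes Fgl2 (-0.07), Il17f (-0.09) and Ccl20 (-0.16) turned negative. The effector cytokine median was also negative, at -0.97, with a signal of at least 100. The cause was not tested. No other named gene at least 2-fold apart changed sign. Other list medians also changed sign: proteasome genes (-0.09) were at 0.04 under normexp and 0.01 under quantile normalization, and transporter genes (-0.05) at 0.43 with a signal of at least 100. With no filter on dim probes, transporter genes were at 0.12, NK and CD8 T cell markers at 0.14 and not -0.23, erythrocyte and platelet markers at 0.24 and not -0.29, and stromal and endothelial markers at 0.16 and not -0.05. Under normexp 114 of 161 named genes kept their sign but moved by more than the scanner error, and 44 stayed within it. Precision is limited by the number of arrays, and genes near the lowest signal above background, about 9 on both arrays, are the least certain.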

Other observations

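Some other lists had no common direction. Of 24 measured genes of ER stress and amino acid response, 5 were lower and 5 higher than in naive T cells on the si-RL array. Ddit4, an inhibitor of mTORC1, read 10068 in the library labelled si-RL, 9647 in the library labelled si-Eos, 1885 in fresh Treg and 1308 in naive T cells (3.15 ± 0.20). In contrast, Ppp1r15a, of the recovery from stress, read 544, 779, 4505 and 5837 in the same order (-3.22 ± 0.20), and Ddit3 and Atf4, transcription factors of the stress response, were 2.83-fold and 2.74-fold lower. Of 16 helper lineage factors, 4 were higher: Tbx21 of the TH1 lineage (2.48 ± 0.21), Rora (1.97 ± 0.20), Irf4 (1.81 ± 0.21) and Gata3 of the TH2 lineage (2.84-fold). The lower one was Zbtb32, a repressor of cytokine genes, with 18.0 in the library labelled si-RL, 1916 in the library labelled si-Eos, 567 in fresh Treg and 88.8 in naive T cells.

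Chemokine receptor and adhesion genes had 5 of 27 higher and 6 lower. Cxcr5, the receptor for entry into B cell follicles, read 16.2 in the library labelled si-RL, 996.5 in the library labelled si-Eos, 1081 in fresh Treg and 84.2 in naive T cells (-2.17 ± 0.28). Cxcr3, a receptor for interferon-induced chemokines, read 1209, 998, 4740 and 442 in the same order (1.66 ± 0.20), so that of these 2 receptors Cxcr5 stood below naive T cells and Cxcr3 above. Of S100, annexin and galectin genes, 4 of 17 were higher, led by Anxa2 (3.13 ± 0.20, with 3.08 on its other probe) and S100a6 (2.44 ± 0.20), and 2 were lower, Crip1 (-1.58 ± 0.20) and Anxa5 (-1.02 ± 0.20). Of 11 measured granzyme, perforin and NK-type genes, 3 were higher and 2 were lower, Ctsw and Prf1. Ctsw, a protease of cytotoxic cells, was lower with 78.8 in the library labelled si-RL, 2739 in the library labelled si-Eos, 1423 in fresh Treg and 816 in naive T cells (-3.16 ± 0.21), and Gzmd was higher by 3.42 ± 0.23.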
